A study of Mus musculus with 36 samples.

Results

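The 10 genes described here write, maintain or remove DNA methylation or protect imprints: Dnmt1, Uhrf1, Dnmt3a, Dnmt3b, Dnmt3l, Tet1, Tet2, Tet3, Zfp57 and Trim28. They were chosen by gene symbol, and all 10 are among the 22761 genes of the deposited table. RNA was sequenced from 36 samples in 9 groups of 4. Ex-fetu ureteric bud (UB), nephron progenitors (NP) and stromal progenitors (SP) came from kidneys of CD1 mouse embryos titled E11.5 or E12.5, and each sample pooled the kidneys of all embryos of a mouse. Sorting took RET+/EpCAM+ cells for UB. NP cells were taken as ITGA8 high and PDGFRA low, and SP cells as ITGA8 low and PDGFRA high. The ES-derived groups were engineered ureteric bud (eUB, titled iUB), from an mESC line labelled Sox9-mCherry (the study elsewhere describes a Sox8-mCherry line) and sorted as EpCAM and mCherry positive, and induced nephron and stromal progenitors (iNP and iSP), from the E14 mESC line sorted like NP and SP. Each ES-derived sample pooled embryoid bodies of 1 batch, so p-values measure the spread between such pools. Mouse strain, cell line and culture differ between ES-derived and ex-fetu cells together, and their parts cannot be told apart. The mESC line and differentiation protocol of eUB also differ from those of iNP and iSP. Tests that set eUB, or its difference from UB, against iNP or iSP cannot separate cell type from line and protocol. The samples titled E11.5 UB give E12.5 as the cell source and the reverse; the titles were used.

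In mammals, methyl groups sit mainly on the cytosine of CpG pairs. DNMT3A and DNMT3B place new methyl groups, with DNMT3L as a cofactor that lacks catalysis of its own, and DNMT1, guided by UHRF1, copies them at replication. TET enzymes oxidise methylcytosine on the way to its removal. ZFP57 binds a methylated hexamer at imprint control regions and recruits TRIM28, a corepressor, which keeps the parental marks through early development. The files hold RNA levels only, and no methylation was measured.

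Between 13004352 and 52535113 reads were counted per library, and 3 reads, taken as the limit of detection, were worth 0.0605 to 0.223 normalised CPM, the read count scaled to library size by the authors. Marker sums followed the sorts, at levels below the E11.5 cells without overlap in eUB and iNP and with overlap in iSP. UB markers summed to 3545 to 3859 in eUB, 4667 to 5007 in E11.5 UB and 2487 to 4100 in E12.5 UB, and to at most 337 in the others. NP markers summed to 665 to 1039 in iNP against 1611 to 1786 in E11.5 NP, and to 364 to 398 in iSP against 292 to 351 in E11.5 SP. Stromal markers summed to 5527 to 5791 in iSP, 5708 to 8241 in E11.5 SP and 6728 or more in E12.5 SP. Endothelial markers summed to 63.1 to 111 in iNP against 10.1 to 32.2 in E11.5 NP, and to 42.1 to 68.4 in iSP against 15.4 to 47.4 in E11.5 SP. In iSP, neural markers summed to 60.0 to 89.4 against 41.5 to 51.96 in E11.5 SP, and UB markers to 87.4 to 99.3 against 149 to 337. In iNP, stromal markers also summed to 1151 to 1639 against 758 to 793 in E11.5 NP, UB markers to 118 to 153 against 53.2 to 74.7, and neural markers to 52.4 to 73.4 against 31.3 to 35.8. In eUB, primordial germ cell markers summed to 227 to 245 against 71.05 to 87.4 in E11.5 UB, most of it Kit. They summed to 66.7 to 76.0 in iNP against 38.8 to 46.0 in E11.5 NP, and to 72.2 to 74.8 in iSP against 105 to 148 in E11.5 SP. Pluripotent cell markers summed to 45.9 to 55.9 in iNP against 30.1 to 39.8 in E11.5 NP. In iSP they summed to 19.8 to 30.6 against 85.15 to 123 in E11.5 SP, and in eUB to 203 to 251 against 197.5 to 246 in E11.5 UB. Their part in the values given here was not tested. In 7 libraries the log2 deviations from the median of the other libraries of the group had an SD above 0.45: E12.5 UB-1, eUB-1, E12.5 NP-1, E12.5 NP-2, iNP-2, E11.5 SP-4 and E12.5 SP-1. In iNP-2 the log2 level, relative to its group, fell by 0.30 per doubling of gene length. E12.5 UB-1 held more NP (490 against 60.5 to 101), stromal (1122 against 204 to 235) and endothelial marker RNA (108 against 3.50 to 6.57) than the other E12.5 UB libraries. In bulk RNA, fewer cells of a type and less RNA per cell cannot be told apart.

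RefSeq lists 19 start sites for the 10 genes on GRCm38.p6, each with 250 bases before and 50 after the start. All 10 genes matched. Windows of 4 genes are shown 5′ to 3′ on the gene's strand, for each gene the one richest in CpG. For the maintenance pair Dnmt1 (chr9:20952574-20952873, minus strand) and Uhrf1 (chr17:56304063-56304362, plus strand), capitals mark 4 E2F-type runs of letters on either strand: the run TTCCCGC, the run TTGGCGC, the run TTCGCGC and the run TTGCCGC.
Dnmt1: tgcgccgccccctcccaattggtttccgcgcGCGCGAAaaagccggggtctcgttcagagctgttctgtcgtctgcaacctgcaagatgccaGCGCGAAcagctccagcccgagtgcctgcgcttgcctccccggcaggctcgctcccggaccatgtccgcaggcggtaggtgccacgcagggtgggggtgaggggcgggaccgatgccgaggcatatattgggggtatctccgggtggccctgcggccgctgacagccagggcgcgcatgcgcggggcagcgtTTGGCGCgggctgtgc
Uhrf1: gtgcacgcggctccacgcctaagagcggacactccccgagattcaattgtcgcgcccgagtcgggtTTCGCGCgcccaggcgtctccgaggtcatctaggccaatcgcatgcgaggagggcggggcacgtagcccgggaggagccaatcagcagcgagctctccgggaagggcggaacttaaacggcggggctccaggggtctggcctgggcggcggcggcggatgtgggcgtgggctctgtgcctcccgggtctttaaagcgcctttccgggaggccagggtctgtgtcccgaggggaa
For Dnmt3b (chr2:153649199-153649498, plus strand) and Zfp57 (chr17:37002275-37002574, plus strand), which showed the largest differences between ex-fetu cell types among the 9 genes tested, capitals mark CpG.
Dnmt3b: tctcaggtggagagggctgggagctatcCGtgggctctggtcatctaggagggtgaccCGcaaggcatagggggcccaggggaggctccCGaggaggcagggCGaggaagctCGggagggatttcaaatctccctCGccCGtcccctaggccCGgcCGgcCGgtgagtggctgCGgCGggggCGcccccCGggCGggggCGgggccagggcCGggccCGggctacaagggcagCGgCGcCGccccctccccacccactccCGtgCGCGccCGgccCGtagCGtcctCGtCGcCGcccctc
Zfp57: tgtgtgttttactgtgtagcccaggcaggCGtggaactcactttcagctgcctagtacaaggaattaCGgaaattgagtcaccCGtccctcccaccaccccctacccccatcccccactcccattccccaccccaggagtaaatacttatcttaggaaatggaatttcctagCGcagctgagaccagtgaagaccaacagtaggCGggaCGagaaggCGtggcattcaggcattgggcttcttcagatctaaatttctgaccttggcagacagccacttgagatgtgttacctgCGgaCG
The Dnmt1 window held 3 E2F-type matches, and the Uhrf1 window 1. Over all 19 windows of the 10 genes, 4 held such a match, in 3 genes (Dnmt1, Uhrf1 and Trim28), and the other 2 Dnmt1 windows held none. Of 32851 promoter windows, not chosen for CpG, 9.57% held one. The Dnmt3b window held 30 CpG and the Zfp57 window 9, with a median of 7 over all windows. At least 30 CpG were found in 11.7% of windows and at most 9 in 56.5%. Dnmt1 and Uhrf1 windows held 33 CpG each, and the Tet2 window 57. A match is a run of letters and not a measured site.

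**Figure D1:**
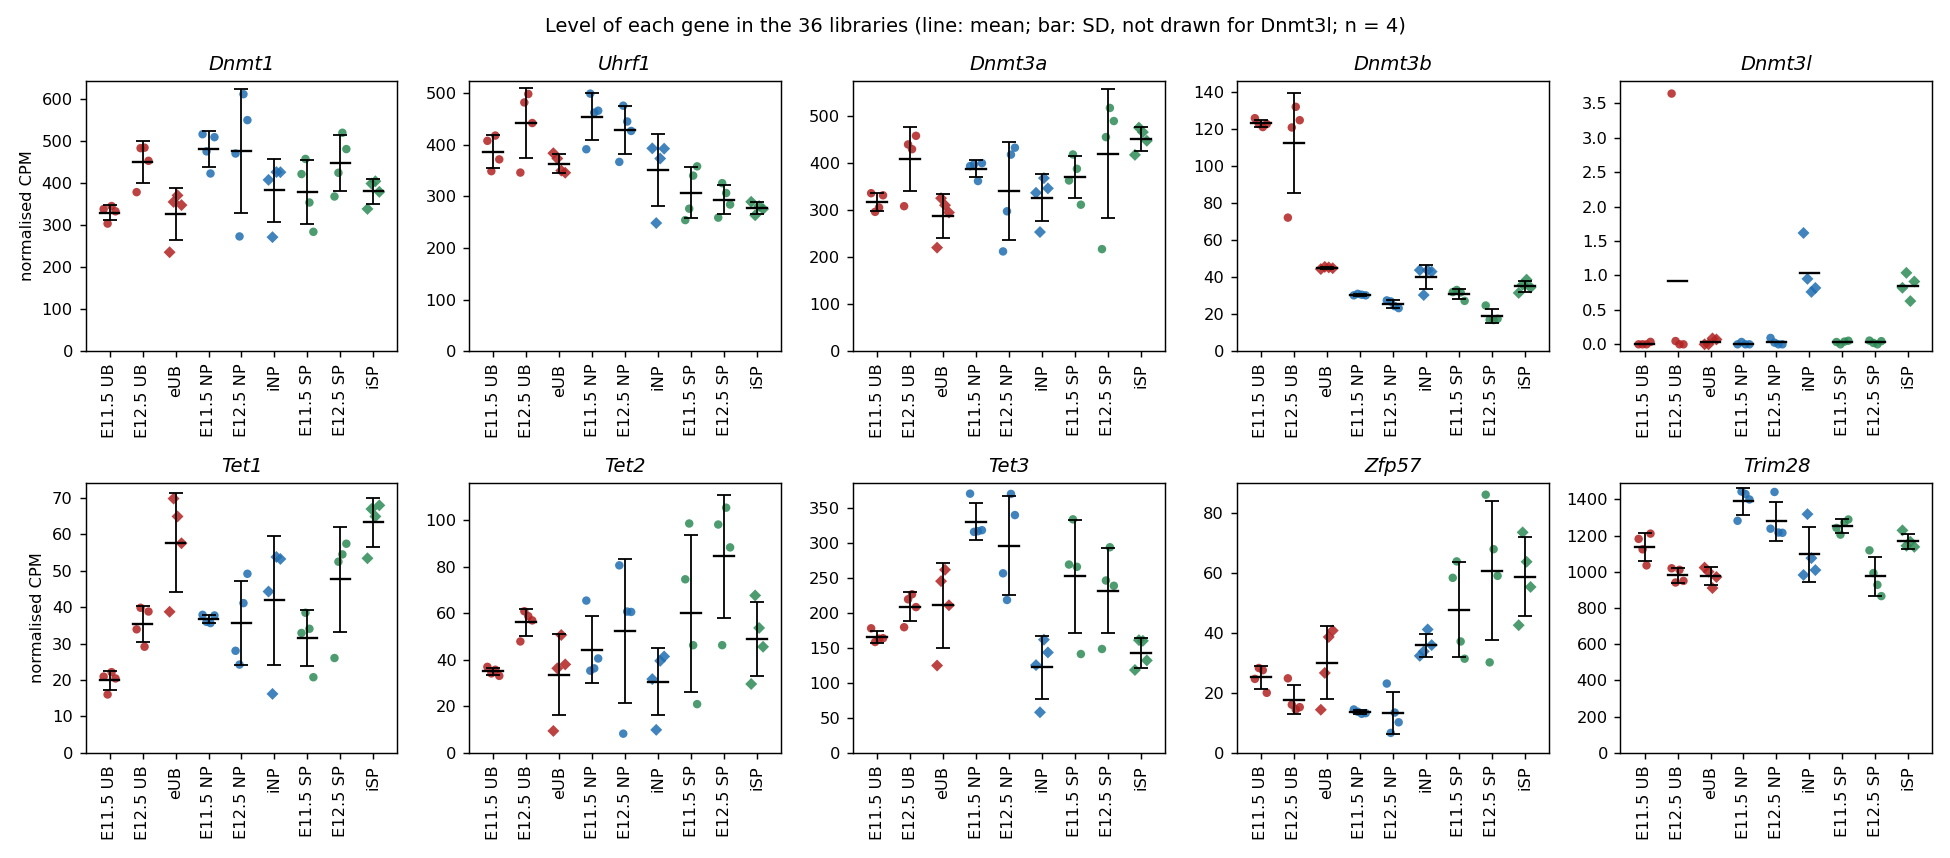
Normalised CPM of the 10 genes in the 36 libraries, with UB in red, NP in blue and SP in green; circles are ex-fetu and diamonds ES-derived libraries, and black lines give the mean and, except for Dnmt3l, the SD. Dnmt3b lies at 72.2 or more in every ex-fetu UB library and at 45.6 or less elsewhere, and Zfp57 has its lowest means in ex-fetu NP cells.

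Per kb of exon, Trim28 was the most abundant of the 10 in all 9 groups (235 to 334 normalised CPM per kb), followed by Uhrf1 (65.1 to 107) and Dnmt1 (44.4 to 65.2). Dnmt3l was the least abundant in all 9. Positions below are GRCm38 with GENCODE vM21 genes, all protein-coding. The remaining order depended on length: it was the same in 4 of 9 groups when the longest transcript replaced all exons.

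Dnmt1 (chr9:20907209-20959888, minus strand), the maintenance methyltransferase, ranged from group means of 327 ± 62.0 (SD, n = 4) in eUB to 481 ± 42.7 in E11.5 NP. Its values in eUB were 235, 355, 371 and 348, and in E11.5 UB 338, 304, 345 and 333, so the groups overlapped. The log2 fold change was -0.03 (95% interval -0.34 to 0.27). Against E12.5 UB, which held 379, 483, 484 and 453, eUB was lower without overlap. That change was -0.47 (SE 0.154, limma adjusted p = 0.034). In iNP Dnmt1 did not pass by limma (-0.35, adjusted p = 0.069), while edgeR (-0.36, adjusted p = 0.046) and DESeq2 (-0.40, adjusted p = 0.024) called it, and 4 of 17 alternatives did in all. Of its 4 values 3 lay at 408 or above and iNP-2 at 271. Without iNP-2 the iNP change was smaller and passed (-0.19, limma adjusted p = 0.040, 0.0020 to 0.21 over the alternatives). The eUB change against E12.5 UB did not pass without E12.5 UB-2, -3 or -4 or eUB-4, with limma adjusted p up to 0.090. The iSP change was 0.02.

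Uhrf1 (chr17:56303321-56323486, plus strand) recognises hemimethylated DNA. It ran from 277 ± 11.0 in iSP to 454 ± 45.3 in E11.5 NP. By limma none of its 6 comparisons of ES-derived with ex-fetu cells passed, and the changes lay between -0.39 and -0.08. The largest, in iNP against E11.5 NP, was near the threshold (limma adjusted p = 0.051) and was called in 7 of 17 alternatives, among them edgeR (-0.40, adjusted p = 0.032) and DESeq2 (-0.44, adjusted p = 0.014), with 0.0041 to 0.18 over all alternatives. Against E12.5 UB, DESeq2 also called eUB lower (-0.29). Without iNP-2, E11.5 NP-1 or iNP-4 the iNP change against E11.5 NP passed, at -0.23, -0.46 and -0.45. It also differed between cell types. E11.5 NP libraries held 391, 499, 462 and 465 and E11.5 SP libraries 254, 276, 340 and 358, without overlap. The log2 fold change was 0.57 (SE 0.128, limma adjusted p = 0.0055), and at E12.5 it was 0.54 (adjusted p = 0.0069). A transcribed near copy, Gm5648, shares 98.3% of 1590 bases with Uhrf1, so its values are uncertain, although the copy itself had a median of 1.01 normalised CPM.

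Dnmt3a (chr12:3806007-3914443, plus strand), a de novo methyltransferase, stayed between group means of 287 and 451. It was higher in iSP (417, 475, 465 and 447) than in E11.5 SP (363, 418, 387 and 311), by 0.29 (SE 0.101, limma adjusted p = 0.027), with 1 E11.5 library above the lowest iSP library. The call was lost in 7 of 17 alternatives: without E11.5 SP-1, iSP-2, iSP-3 or iSP-4, by edgeR, by DESeq2 and in the fit of all 36 samples (adjusted p 0.00014 to 0.21 over all alternatives, limma and count tests). In eUB it was lower than in E12.5 UB by a log2 fold change of -0.50 (limma adjusted p = 0.031), a call lost without E12.5 UB-2, -3 or -4 or eUB-4. In iNP against E11.5 NP it did not pass by limma (-0.26), while edgeR (-0.28, adjusted p = 0.048), DESeq2 (-0.32, adjusted p = 0.022) and the fit without iNP-2 (-0.15) called it, with 0.022 to 0.72 over all alternatives. Exons of Dnmt3a share 133 bases with the antisense gene Dnmt3aos, and the strand setting of the counting is not given in the sources used here.

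Dnmt3b (chr2:153649450-153687730, plus strand), the other de novo methyltransferase, was highest in the ureteric bud among ex-fetu cells. E11.5 UB libraries held 126, 123, 121 and 123, against 30.2 to 31.0 in E11.5 NP and 27.2 to 33.1 in E11.5 SP. The groups did not overlap, and the log2 fold changes were 1.98 (SE 0.0554, limma adjusted p = 2.3e-11) and 1.96 (SE 0.0842, adjusted p = 2.7e-08). At E12.5 they were 2.06 and 2.48.
The eUB libraries held 44.4, 45.6, 45.3 and 44.9, far below both UB groups and above all ex-fetu NP and SP libraries. Against E11.5 UB the change was -1.43 (SE 0.0576, limma adjusted p = 7e-08), and it was also past 1 on the log2 scale (limma treat, adjusted p = 0.00046). Against E12.5 UB, where library 1 held 72.2 and the others 121 to 132, the change was -1.26 (SE 0.175, limma adjusted p = 0.00055). Each of the 17 alternative analyses called both changes.
In iNP Dnmt3b was higher than in E12.5 NP, at 43.8, 30.4, 43.8 and 43.0 against 27.5, 26.9, 24.4 and 23.3, without overlap (log2 fold change 0.63, limma adjusted p = 0.0081). In iSP it was higher than in E12.5 SP by 0.87 (SE 0.136, limma adjusted p = 0.00044), at 31.5 to 38.7 against 16.8 to 24.7. Against the E11.5 groups the changes were smaller, 0.37 in iNP (limma adjusted p = 0.025, lost without any 1 library other than iNP-2 and E11.5 NP-1) and 0.18 in iSP (adjusted p = 0.14). The difference between ES-derived and E11.5 cells itself differed between UB and NP, by -1.81 (limma adjusted p = 2.4e-08), and between UB and SP, by -1.61 (adjusted p = 6e-09). eUB and iNP did not differ by the test (0.17, 95% interval -0.11 to 0.46).
Dnmt3c shares 93.9% of 1434 bases with Dnmt3b, so reads could be split between them; its own median was 0.0214 normalised CPM.
As a ratio per kb of exon, Dnmt3b stood at 1.27 ± 0.0669 of Dnmt3a in E11.5 UB, 0.522 ± 0.0921 in eUB, and 0.257 to 0.275 in E11.5 NP and SP. By the longest transcript these were 0.874, 0.359 and 0.177 to 0.189, so E11.5 UB stayed above eUB, and eUB above E11.5 NP and SP.

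Dnmt3l (chr10:78041947-78063622, plus strand), the cofactor, did not reach 1 normalised CPM in 4 libraries of any comparison, the filter used, and was left out of the main test. Ex-fetu and eUB libraries held at most 0.0923, except E12.5 UB-1 with 3.64. The iNP libraries held 1.62, 0.951, 0.762 and 0.819, and the iSP libraries 0.821, 1.04, 0.628 and 0.912. In reads, iNP held 137 and E11.5 NP 1 over 4 libraries, a ratio of 114.8 once scaled to total reads, with a 95% counting interval of 20.3 to 4566. iSP held 90 and E11.5 SP 4, a ratio of 30.6 (11.6 to 114.7). These intervals cover counting error only. With no filter, limma gave 0.996 in iNP (adjusted p = 7.1e-05) and 0.84 in iSP (adjusted p = 1.3e-05) on the log2 scale, which depend on the pseudocount at such low levels. E12.5 UB-1 also held the raised NP, stromal and endothelial markers given above, and their part in its Dnmt3l value was not tested. Primordial germ cell and pluripotent marker sums, given above, were higher in iNP than in E11.5 NP and lower in iSP than in E11.5 SP. Their part in the Dnmt3l values was not tested. Dnmt3l shares 67 exonic bases with Aire on the opposite strand.

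**Figure D2:**
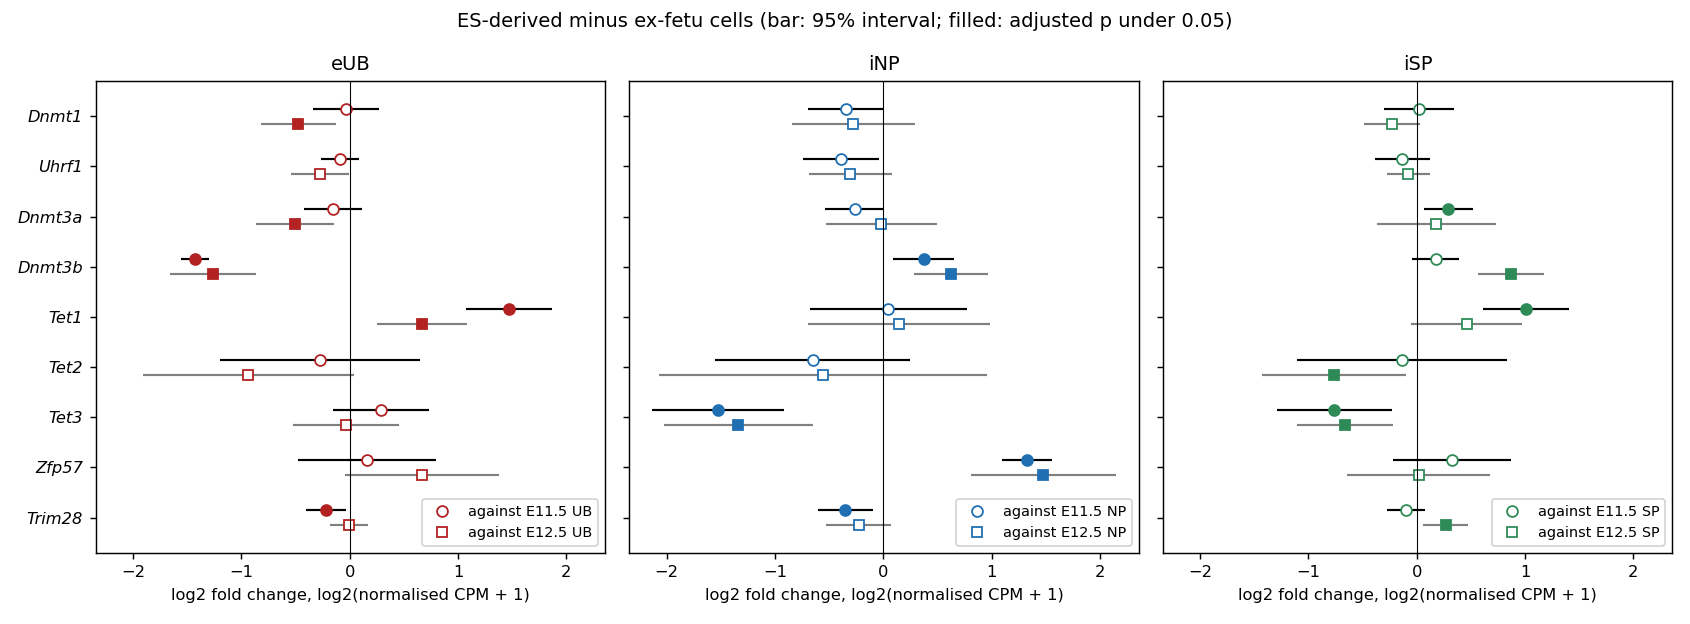
Log2 fold changes of ES-derived against E11.5 (circles) and E12.5 (squares) cells for the 9 genes tested, with 95% intervals; filled symbols have a limma adjusted p under 0.05. Dnmt3b lies below 0 in eUB and above 0 in iNP and iSP, and Tet3 lies below 0 in iNP and iSP.

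Among the 9 genes tested, 3 were called in eUB against E11.5 UB (60.5% of all genes), 4 in iNP against E11.5 NP (64.7%) and 3 in iSP against E11.5 SP (67.6%). Leaving out 1 library moved the first to 5 (without eUB-1, 70.7% of all genes) and the second to 8 (without iNP-2, 72.0%) or 2 (without iNP-1 or any of E11.5 NP-2, -3 and -4). Against E12.5 cells 4 (44.4% of all genes), 3 (44.3%) and 4 (62.1%) were called. With 1 library left out these counts moved too, to 1 in eUB without E12.5 UB-3 and to 1 in iSP without iSP-1. The full ranges are given below. The members' shares lay below the background in 5 of these 6 comparisons, and in the sixth, eUB against E12.5 UB, 4 of 9 matched it. The median size of their change against E11.5 cells was 0.22, 0.37 and 0.18 on the log2 scale, beside 0.41, 0.53 and 0.54 over all genes. Past 1 on the log2 scale, 1 member was called in eUB (7.01% of all genes), 0 in iNP (8.96%) and 0 in iSP (10.4%). The 4 libraries of each side did not overlap for 3 of the 9 in eUB (56.1%), 2 in iNP (62.4%) and 1 in iSP (62.2%). The difference from E11.5 cells itself differed for 4 of 9 genes between UB and NP (47.1% of all genes), 3 between UB and SP (47.4%) and 2 between NP and SP (29.3%). Among them was Dnmt3a, lower by this measure in UB than SP (-0.45, limma adjusted p = 0.031) and in NP than SP (-0.56, adjusted p = 0.015). The first was lost in 6 of 25 alternatives (all 36 samples in 1 fit, and without E11.5 UB-1 or -4, E11.5 SP-4, or iSP-2 or -3, with limma adjusted p up to 0.22), and the second in the fit of all 36 samples. All 3 pairs share the E11.5 comparisons of their cell types.

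Tet1 (chr10:62804570-62908996, minus strand), a dioxygenase, rose in eUB. Its libraries held 38.8, 69.8, 64.9 and 57.6, against 21.0, 16.04, 22.2 and 20.4 in E11.5 UB, without overlap. The log2 fold change was 1.47 (SE 0.177, limma adjusted p = 6.6e-05). In the same eUB libraries 4 of 6 primordial germ cell markers tested were higher and 0 lower, and their part in the Tet1 and Dnmt3b values was not tested. Against E12.5 UB the Tet1 change was 0.67 (limma adjusted p = 0.017), and 0.58 and 0.57 without E12.5 UB-3 or eUB-2, where it did not pass. In iSP, at 53.4, 67.0, 64.9 and 68.0 against 32.9, 38.5, 34.1 and 20.8 in E11.5 SP, it was 1.01 (SE 0.175, limma adjusted p = 0.00066). Against E12.5 SP, which held 26.1 to 57.4 and overlapped iSP, it was 0.46 and did not pass (limma adjusted p = 0.11), and 2 of 17 alternatives called it (0.00030 to 0.20 over all alternatives). In iNP the libraries held 44.3, 16.2, 53.8 and 53.3, and the change was 0.05 (limma adjusted p = 0.91). Without iNP-2 it was 0.44 (limma adjusted p = 0.00075), in a range of 0.00058 to 0.95 over the alternatives. The change in UB exceeded that in NP by 1.42 (limma adjusted p = 0.0077).

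Tet2 (chr3:133463679-133545139, minus strand), its relative, had the widest deviations from group means of the 10 genes, from -2.15 to 0.99 on the log2 scale. It held 9.43 in eUB-1 against 36.3 to 50.7 in the other eUB libraries, 9.90 in iNP-2 against 31.7 to 41.4, 8.26 in E12.5 NP-2 against 60.6 to 80.6, and 21.0 in E11.5 SP-4 against 46.3 to 98.6. Long genes were low in those 4 libraries, but not every Tet2 value followed the trend: E12.5 SP-2 was low (46.3 against 88.3 to 105.4) with a change of -0.034 per doubling of length, and E12.5 SP-1 was not low (98.2) with -0.106. The part of the trend in the Tet2 values was not tested. No comparison of ES-derived with E11.5 cells passed for Tet2, with intervals of -1.19 to 0.65 in eUB, -1.56 to 0.25 in iNP and -1.11 to 0.84 in iSP. Against E12.5 SP, iSP was lower by a log2 fold change of -0.76 (limma adjusted p = 0.048), with overlapping libraries, and 6 of 17 alternatives called it (0.0059 to 0.23 over all alternatives).

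**Figure D3:**
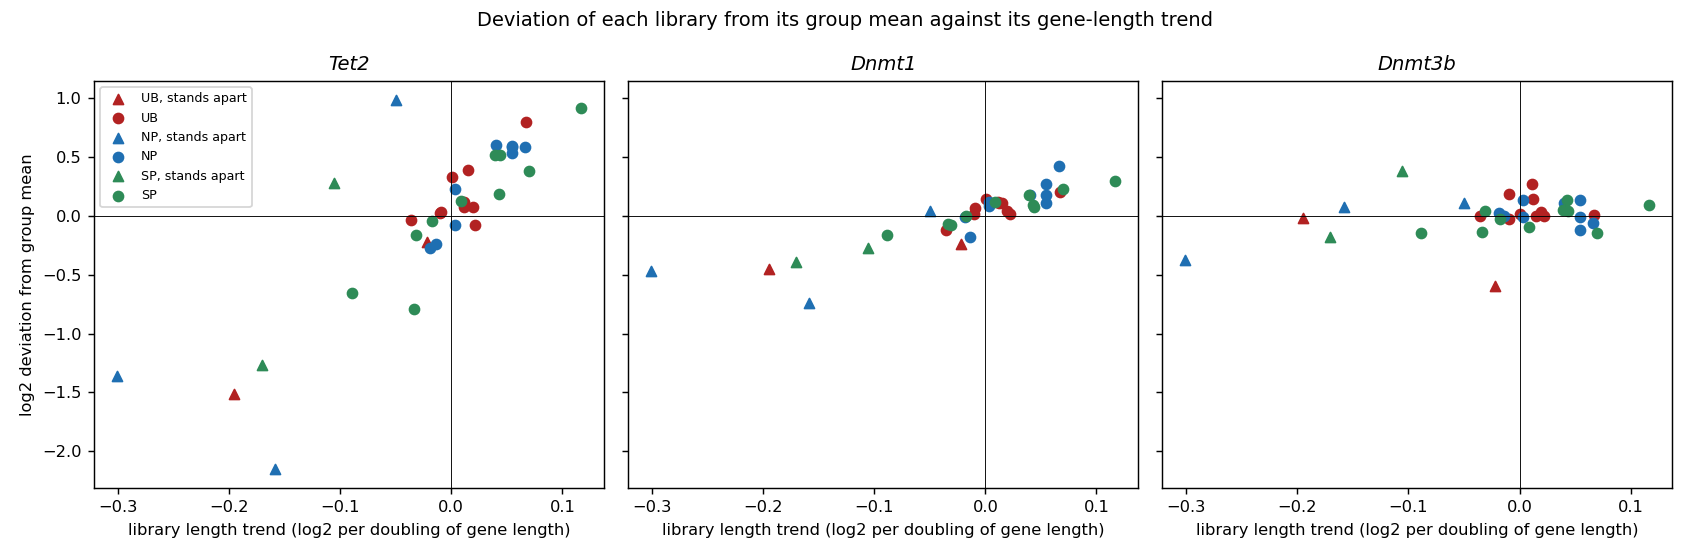
Each library's log2 deviation from its group mean against its change of log2 level per doubling of gene length, for Tet2, Dnmt1 and Dnmt3b; triangles are the 7 libraries that stand apart. Tet2 deviations run from -2.15 to 0.99, and those of Dnmt3b run from -0.60 to 0.38.

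Tet3 (chr6:83362373-83459084, minus strand) was the most abundant Tet gene per kb of exon in every group, with 55.1% to 79.9% of their summed level. It fell in iNP: 126, 58.0, 162 and 144 against 371, 316, 317 and 318 in E11.5 NP, without overlap. The log2 fold change was -1.52 (SE 0.272, limma adjusted p = 0.00081), and -1.34 against E12.5 NP (adjusted p = 0.0058). In iSP it fell by 0.76 on the log2 scale (SE 0.237, limma adjusted p = 0.017), with 119 to 161 against 141 to 334. Without iSP-1 it did not pass (-0.68, limma adjusted p = 0.051), and 15 of 17 alternatives called it (7.1e-05 to 0.059 over all alternatives). In eUB the change was 0.29 (limma adjusted p = 0.24). Without eUB-1 it was 0.52 (limma adjusted p = 3.1e-05, 3.1e-05 to 0.50 over the alternatives). The changes differed between UB and NP, by 1.81 (limma adjusted p = 0.00068), and between UB and SP, by 1.05 (adjusted p = 0.016). The share of Tet1 among the 3 genes was 9.66% to 10.2% in the E11.5 groups, 9.92% to 13.9% in the E12.5 groups and 20.8% to 26.5% in the ES-derived groups, as means of 4 libraries. In iNP, Tet3 was lower than in E11.5 NP, while the Tet1 change of 0.05 was not called, although it was larger and passed without iNP-2, as given above.

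Zfp57 (chr17:37001163-37010635, plus strand), which binds imprint control regions, had its lowest group means in ex-fetu NP cells and its highest in SP and iSP cells. E11.5 NP libraries held 14.5, 13.7, 13.05 and 13.3 and E11.5 SP libraries 58.4, 63.9, 37.2 and 31.4, without overlap (log2 fold change -1.68, SE 0.21, limma adjusted p = 0.00018). In iNP it rose to 32.4, 33.9, 41.2 and 36.0, above every E11.5 NP library. The change was 1.33 (SE 0.104, limma adjusted p = 4.3e-06), and 1.48 against E12.5 NP (adjusted p = 0.0029). In iNP 7 of 9 stromal markers were also higher than in E11.5 NP and 1 lower, and their part in the Zfp57 value was not tested. eUB libraries held 14.4, 26.7, 38.7 and 40.8 against 20.1 to 28.3 in E11.5 UB, a change of 0.16 (limma adjusted p = 0.65). Without eUB-1 it was 0.46 (limma adjusted p = 0.011, 0.011 to 0.98 over the alternatives). The iSP change was 0.33 (95% interval -0.22 to 0.87). The difference in NP exceeded that in SP by 0.999 (limma adjusted p = 0.012, 0.0016 to 0.086 over the alternatives), a call lost in the fit of all 36 samples. The difference in UB fell short of that in NP by a log2 value of -1.17 (limma adjusted p = 0.0069).

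Trim28 (chr7:12999114-13031035, plus strand), the corepressor, had the narrowest deviations of the 10, from -0.17 to 0.28 around group means of 976 to 1388. It was lower in eUB than in E11.5 UB, at 910 to 1023 against 1035 to 1210 (log2 fold change -0.22, limma adjusted p = 0.039), and this was lost in 9 of 17 alternatives, among them all fits without 1 library other than E11.5 UB-3 and eUB-1. In iNP the change against E11.5 NP was -0.35 (limma adjusted p = 0.022), lost in 7 of 17, among them those without E11.5 NP-2, -3 or -4 or iNP-1 or -4. In iSP it went the other way against E12.5 SP, at 1137 to 1228 against 865 to 1118 without overlap. That change was 0.27 (limma adjusted p = 0.032, 0.0028 to 0.10 over the alternatives), and 7 of 17 alternatives called it. Against E11.5 SP the iSP change was -0.10 (limma adjusted p = 0.28).

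Between the titled ages, 5 of 9 genes changed in UB (26.5% of all genes called). From E11.5 to E12.5, Tet1 rose by 0.80 (limma adjusted p = 0.0027), Tet2 by 0.66 (adjusted p = 0.0011), Dnmt1 by 0.44 and Tet3 by 0.32, and Trim28 fell by 0.21. Of 17 alternatives, 17 called Tet1, 16 Tet2, 16 Dnmt1 and 15 Tet3. Adjusted p (limma and count tests) reached 0.42 for Tet2, 0.097 for Dnmt1 and 0.43 for Tet3 over all alternatives. The Trim28 call was lost in 10 of 17 alternatives (limma adjusted p = 0.045, 0.0022 to 0.24 over all alternatives), among them those without E11.5 UB-1, -2 or -4 or E12.5 UB-2, -3 or -4. Without E12.5 UB-1, 8 of 9 and 44.0% of all genes were called. In NP none was called by limma (6.34% of all genes), with 1 at an unadjusted p under 0.05 and 0 by edgeR and DESeq2. In SP 1 was called (8.52%), Dnmt3b, at 16.8 to 24.7 against 27.2 to 33.1, a change of -0.69 (limma adjusted p = 0.024). The count there was 4 without E12.5 SP-1 (21.5% of all genes) and 0 without any 1 of E11.5 SP-1 to -3 or E12.5 SP-2 to -4. The label conflict on UB age bears on the UB values: under the cell source labels, each rise given here for UB would be a fall, and the fall of Trim28 a rise.

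Among ex-fetu cell types, 8 of 9 genes differed between E11.5 UB and NP (60.2% of all genes), 4 between UB and SP (53.6%) and 2 between NP and SP (43.1%). At E12.5 the counts were 2 (32.7%), 3 (46.4%) and 3 (34.8%). Same-numbered E12.5 NP and SP samples deviated together, and a fit blocked on replicate number called 6, where 57.8% of all genes were called, adding Dnmt3a (-0.28, limma adjusted p = 0.047), Dnmt3b (0.42, adjusted p = 0.011) and Tet2 (-0.99, adjusted p = 0.029). Over all alternatives these p-values reached 0.92, 0.16 and 0.51. Between the ES-derived groups, 0 differed between eUB and iNP by limma (52.2% of all genes), with 1 at an unadjusted p under 0.05, 0 by edgeR and 1 by DESeq2. Between eUB and iSP 5 differed (64.7%), and between iNP and iSP 2 (30.7%), or 6 without iNP-2 (43.8%). Without E11.5 SP-4, 8 rather than 4 differed between E11.5 UB and SP (58.8% of all genes).

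Across the 36 libraries, the genes most like Dnmt3b were Pde1b (Pearson r = 0.951), Tfap2b (0.948) and Tmem229a (0.946), and those most like Zfp57 were Mgat5b (0.914), Hmha1 (0.912) and Grasp (0.911). Those most like Tet2 were Tnrc18 (0.955), Kmt2e (0.930) and Zzef1 (0.923), and those most like Tet3 were Lrp6 (0.923), Pds5a (0.920) and Sos1 (0.919). For Dnmt1 they were Gtf3c1 (0.932), Rfc1 (0.898) and Chd8 (0.868), and for Dnmt3a they were Gli3 (0.905), Nf1 (0.859) and Myo9a (0.837). For Tet1 they were Usp45 (0.886), Aak1 (0.873) and Wrn (0.865), for Uhrf1 they were Eftud2 (0.880), Mybbp1a (0.872) and Dnaaf5 (0.861), and for Trim28 they were Maf1 (0.851), Mcm3 (0.843) and Fscn1 (0.835). Uhrf1 and Zfp57 ran opposite to each other (r = -0.866). The libraries share depth, length trend and cell type, so these are descriptions over 36 libraries.

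The 6 lists of related genes are given for eUB, iNP and iSP against E11.5 cells, where the median log2 fold change of all genes was 0.02, 0.07 and 0.04 and the share of all genes called 60.5%, 64.7% and 67.6%. Of 9 maintenance partners, 4 were called in eUB, 5 in iNP and 6 in iSP (44.4%, 55.6% and 66.7%, each below the share of all genes), with list medians of -0.13, -0.24 and -0.11. Hells, a remodeller needed for methylation, fell in iNP (64.5 ± 5.95 against 174 ± 20.4 in E11.5 NP, log2 fold change -1.41, limma adjusted p = 4.7e-06) and in iSP (-0.75, adjusted p = 8.6e-05). Of 9 readers of methylated CpG, 4 were called in each of the 3 comparisons (44.4%, below all genes, medians 0.08, -0.14 and -0.09), with Mbd4, a glycosylase, higher in eUB (18.01 ± 2.33 against 7.58 ± 0.917, 1.14, limma adjusted p = 2.6e-05) and in iSP (1.05). In the TRIM28 and ZFP57 pathway, 16 of 17 genes were tested: 3 were higher and 5 lower in eUB, 0 and 9 in iNP, and 5 and 2 in iSP. With 50.0%, 56.2% and 43.8% called, the list lay below all genes in each comparison, and its medians were 0.03, -0.38 and -0.09. Zfp568, a zinc-finger partner of TRIM28, fell in iNP (94.9 ± 26.9 against 232 ± 9.37, -1.34, limma adjusted p = 0.00031) and in iSP (-1.29).

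**Figure D4:**
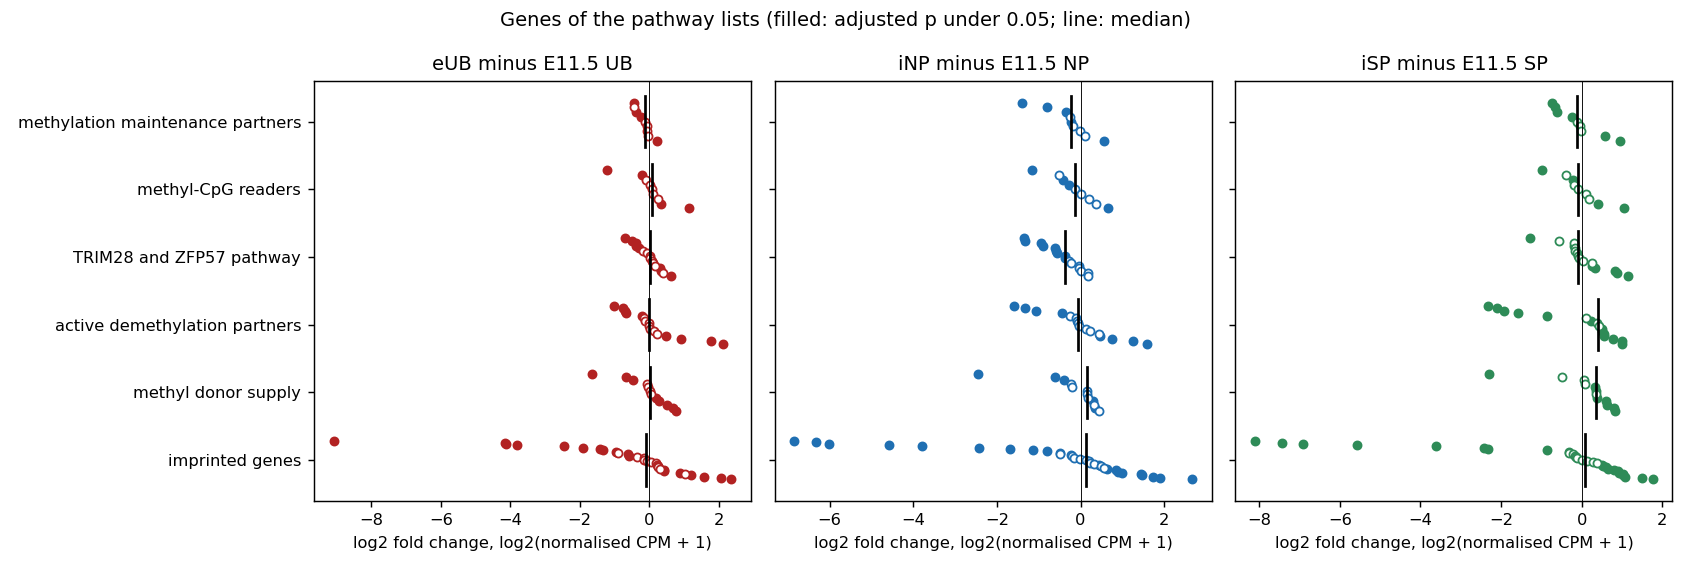
Log2 fold changes of the genes of 6 pathway lists in the 3 comparisons with E11.5 cells; filled symbols have a limma adjusted p under 0.05 and black lines are list medians. Imprinted genes reach from -9.09 to 2.66, the widest of the 6 lists.

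Of 16 partners of active demethylation, 9, 8 and 13 were called in eUB, iNP and iSP (56.2%, 50.0% and 81.2% beside 60.5%, 64.7% and 67.6% of all genes), with medians near 0 in the first and of -0.05 and 0.40 in the others. Neil2, a glycosylase, rose to 7.48 ± 0.337 in eUB from 0.938 ± 0.206 (log2 fold change 2.13, limma adjusted p = 3.1e-07), and Gadd45b fell in iSP (11.4 ± 0.897 against 52.5 ± 7.11, -2.10, limma adjusted p = 5.6e-07). In methyl donor supply, 8, 5 and 8 of 12 genes were called (66.7%, 41.7% and 66.7%, medians 0.03, 0.15 and 0.35). Mthfd2, of mitochondrial folate metabolism, fell in all 3, from 236 ± 34.2 to 41.8 ± 3.91 in iNP (-2.46, limma adjusted p = 2.7e-07). Of 32 imprinted genes, 18 of 30 tested were called in eUB, 19 of 31 in iNP and 20 of 30 in iSP, beside 60.5%, 64.7% and 67.6% of all genes. Their medians were -0.10, 0.13 and 0.07. H19 fell from 2941 ± 220 to 25.1 ± 5.98 in iNP (-6.84, limma adjusted p = 3.6e-09) and from 3530 ± 357 to 20.2 ± 7.50 in iSP (-7.44), and was 2004 ± 21.0 against 2228 ± 259 in eUB. Grb10 fell in eUB to 0.866 ± 0.338 from 1002 ± 68.6 (-9.09, limma adjusted p = 1.8e-10). Of 16 germline genes that promoter methylation silences, few were tested: 0 of 2 were called in eUB, 2 of 3 in iNP and 3 of 3 in iSP, all higher. The list summed to 10.4 to 11.3 in iNP against 3.16 to 4.31 in E11.5 NP, and to 11.75 to 14.6 in iSP against 4.04 to 7.11 in E11.5 SP. Sycp3 was higher in iNP (4.61 ± 0.803 against 0.0591 ± 0.0794). Erythroid markers summed to at most 0.146 in ES-derived libraries and reached 2793 in ex-fetu ones, and macrophage markers to 40.9 to 98.9 in ex-fetu UB and at most 2.34 elsewhere. The part of such cells in these values was not tested. Of 16 G2 and mitosis genes, 11, 11 and 9 rose in eUB, iNP and iSP and 0 fell, or 68.8%, 68.8% and 56.2% called beside 60.5%, 64.7% and 67.6% of all genes. Of 20 S phase genes, 8 rose and 5 fell in eUB, 0 and 12 in iNP, and 2 and 8 in iSP, or 65.0%, 60.0% and 50.0% called.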

How the data were processed

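Bulk RNA-seq of 36 mouse samples was analysed. The authors trimmed reads with cutadapt, aligned them with STAR, counted genes and scaled counts with edgeR. The submitters' notes write the genome as GRCh38 although the gene IDs are mouse. The deposited signal values are normalised CPM per gene, from which whole reads were recovered for 100.0% of values (within 0.01 of a whole number). A second table with the authors' means, fold changes and p-values was not used. Groups came from sample titles. Values were tested as log2(normalised CPM + 1) with limma 3.58.1 (R 4.3.3), each comparison on its 8 samples (interactions on both pairs), for genes at 1 or more in at least 4 libraries, with Benjamini-Hochberg adjustment. A fold change on this scale understates the change of low genes. edgeR 4.0.16 and DESeq2 1.42.0 on recovered reads, other scalings, filters, pseudocounts and left-out libraries were alternatives. The limma test of eUB against E11.5 UB was checked on simulated data; the other fits were not. The main fits did not pair samples by replicate number, not even for E12.5 NP against SP. Pairing entered only through a blocked fit, 1 of the alternatives. Only in E12.5 NP and SP did all 4 same-numbered deviations correlate at 0.543 or more. The members and lists were chosen with earlier results of these data known, and list genes named are among the 2 with the largest called changes in each direction. H19 in eUB is given for comparison.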

Additional observations from a re-analysis of the deposited data

Results flagged for a closer look

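One library lay far from the other 3 of its group in 12 of 90 sets of 4 values. For continuous, separate values chance gives about 1 in 20, but the 90 sets share the same 36 libraries, and that rate does not hold for the counts of Dnmt3l near 0. In iNP, library 2 was low for Dnmt1 (271.4 against 407.7 to 426.4 normalised CPM), Dnmt3b (30.36 against 43.02 to 43.82) and Uhrf1 (248.0 against 372.9 to 392.6). In E12.5 UB, library 1 was high for Dnmt3l (3.643 against at most 0.04734) and Zfp57 (24.89 against 14.49 to 16.10). In E12.5 SP, library 1 was high for Dnmt3b (24.70) and low for Tet1 (26.05). Dnmt3a was low in E11.5 NP-3 (361.4), Tet3 high in E11.5 NP-1 (370.6) and Trim28 high in E12.5 NP-2 (1440 against 1215 to 1238). Dnmt3l had a single read in E11.5 UB-4 (0.03556) and in E11.5 NP-2 (0.03357), and 0 in the other libraries of those groups.

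As said above, eUB differs from iNP and iSP in mESC line and protocol as well as cell type. The difference between ES-derived and E11.5 cells differed between cell types in 9 of 27 limma tests. Between UB and NP it differed for Dnmt3b (-1.81), Tet1 (1.42), Tet3 (1.81) and Zfp57 (-1.17) on the log2 scale. Between UB and SP it differed for Dnmt3a (-0.45), Dnmt3b (-1.61) and Tet3 (1.05), and between NP and SP for Dnmt3a (-0.56) and Zfp57 (0.999).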

How the results depend on the processing

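Dnmt3b and Tet1 in eUB, Tet3 and Zfp57 in iNP, and Tet1 in iSP kept their direction and their call against E11.5 cells in all 17 alternative analyses and in the 3 added after seeing the data. No called change of a member reversed. Trim28 in eUB was lost in 9, and Trim28 in iNP in 7. The added alternatives remove the trend with length and GC content, with or without a replicate block, or the 7 libraries that stand apart; removing those lowers the residual spread by construction. For the other moves the cause was not tested. Dnmt3l, too low for the filter, gave a log2 fold change with no filter of 0.996 in iNP and 0.84 in iSP.

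Of the 9 members tested, the number called moved as follows. Without the libraries that stand apart it was 5 in eUB and 8 in iNP against E11.5 cells, 7 and 8 against E12.5 cells, 8, 1 and 4 between ages in UB, NP and SP, 8 for E11.5 UB against SP, 5 in each of the 3 comparisons of E12.5 cell types, 4 for eUB against iNP, 6 for iNP against iSP and 5 for the difference of NP and SP. With the trend removed it was 7 in iNP and 5 against E12.5 NP (both with and without the block), 7 for E11.5 NP against SP (both), 5 for E12.5 NP against SP (6 with the block), 3 for eUB against iNP (2), 8 for eUB against iSP (9), 6 for the difference of NP and SP (both), and, with the block, 3 between ages in UB. edgeR and DESeq2 each called 7 in iNP, and DESeq2 2 between ages in SP and 1 for eUB against iNP. A fit of all 36 samples called 5 in iNP against E12.5 NP, 1 and 2 between ages in UB and SP, 1 for eUB against iNP, 1 for iNP against iSP and 0 for the difference of NP and SP. Quantile normalisation called 2 in iSP against E12.5 SP. With no filter 1 was called for eUB against iNP, and this was Dnmt3l, which is not among the 9 (-0.95, limma adjusted p = 0.00016). The order of levels per kb was the same in 4 of 9 groups with the longest transcript.

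Past 1 on the log2 scale, eUB against E11.5 UB gave 2 with the trend removed or without the libraries that stand apart. iNP against E11.5 NP gave 1 with upper-quartile scaling, a pseudocount of 0.1, the trend removed (with or without the block) or the libraries that stand apart left out. iSP against E11.5 SP gave 1 with the trend removed (with or without the block), and eUB and iNP against E12.5 cells gave 1 each without the libraries that stand apart.

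Leaving out 1 library gave 2 to 5 calls in eUB, 2 to 8 in iNP, 1 to 6 in eUB against E12.5 UB, 3 to 5 in iNP against E12.5 NP, and 1 to 4 in iSP against E12.5 SP, where iSP-1 gave the lowest. It gave 4 to 8 between ages in UB, 0 to 4 in SP, 3 to 8 for E11.5 UB against SP, 3 to 5 for E12.5 UB against SP, 0 to 1 for eUB against iNP, 2 to 6 for iNP against iSP and 2 to 4 for the difference of NP and SP. Past 1 the ranges were 1 to 2 in eUB, 0 to 1 in iNP, and 0 to 1 for each against E12.5 cells.

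The replicate block changed the number of members called to 6 for E12.5 NP against SP, 8 for eUB against iSP, 3 between ages in UB and 0 between ages in SP. Each sample matched its own number best only in E12.5 NP and SP. Whether other same-numbered ex-fetu samples, or iNP and iSP samples, shared material is not given in the sources used here. Same-numbered deviations correlated at a mean of 0.205 in E11.5 NP and SP, against -0.071 for other pairs. In eUB and iSP they correlated at 0.057 to 0.690, with a mean of 0.329 against -0.091.

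Over all genes, 3648 were called between ages in UB, 2365 with the block, 2332 without E11.5 UB-1 and 5982 without E12.5 UB-1. In NP 850 were called, 1528 in the fit of all 36 samples, 469 with a filter of 5, 1912 by DESeq2, 3165 without the libraries that stand apart 2249 without E12.5 NP-1, and 147 to 372 without E12.5 NP-3 or -4 or any 1 E11.5 NP library. In SP 1162 were called, 2987 in the fit of all 36 samples, 762 with a filter of 5, 2097 by DESeq2, 3870 without the libraries that stand apart 2889 without E12.5 SP-1, and 392 to 617 without E12.5 SP-2, -3 or -4 or E11.5 SP-1, -2 or -3. E12.5 NP against SP gave 4789, 7961 with the block and 8631 with the trend removed as well. E12.5 UB against NP gave 4550, and 2924 to 2974 without E12.5 UB-2, -3 or -4. Depth limits the values of Dnmt3l most.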
